A study of Rattus norvegicus with 8 samples.

Results

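The natriuretic peptide system and the adrenomedullin and calcitonin gene-related peptide (CGRP) system were followed through 10 rat genes in vessels of hypertensive and control rats. The genes were the receptors Npr1, Npr2 and Npr3, the ligands Nppb, Nppc and Adm, the receptor Calcrl and its partners Ramp1, Ramp2 and Ramp3. They were chosen by name, as 10 of the 16678 genes that the array probes could be matched to, and 12 of its 45598 probes read them. RNA of 4 male hypertensive rats (titled disease model rats) and 4 male control rats was measured with 1 array per animal. Every sample's strain label reads Wistar-Kyoto, the name of a normotensive laboratory strain, although the title reserves that name for the controls, so which strain the hypertensive rats were is uncertain. The tissue is labelled only as vessel, and the age, the kind of vessel and the origin of the hypertension are not given in the sources used here.

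Natriuretic peptides lower blood pressure. The products of Npr1 and Npr2 carry their own guanylyl cyclase and make cyclic GMP, which relaxes smooth muscle. Npr1 responds to the heart's peptides and Npr2 to C-type natriuretic peptide, the product of Nppc, while the product of Npr3 removes the peptides from the circulation. Adrenomedullin and CGRP dilate vessels through the same receptor protein, encoded by Calcrl. That protein needs a receptor activity-modifying protein (RAMP) beside it: with RAMP1 it binds CGRP, and with RAMP2 or RAMP3 it binds adrenomedullin.

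A level below is the log2 of a probe's processed signal minus the 75th percentile of its array, so levels of 1 probe can be compared between arrays but not between genes. The 75th percentile of the signal was 357 to 478 in hypertensive arrays and 405 to 503 in control arrays, and no gene spot was saturated. All 10 smooth muscle and all 12 endothelial marker genes with a probe passed the filter on dim signal, against 3 of 9 cardiac muscle markers, with Myh6 and Myh7 well above background on 0 arrays. Hypertensive replicate 4 stood apart from the other 7 arrays, with 8 white adipocyte markers at a mean level of 2.11, where hypertensive replicates 1 to 3 ranged from -1.48 to -0.19 and control arrays from -0.94 to 0.30. Results are therefore also given without it where they differ. All 8 arrays lay on 1 slide and were scanned together, the hypertensive arrays in 1 row and the controls in the other, so slide row and group cannot be told apart.

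None of the 10 genes passed the test between hypertensive and control vessels. Of the 9 that could be tested, 0 had an adjusted p under 0.05 in the limma fit across 24552 genes and unnamed probes, in which 1111 (4.53%) passed, 2.61% higher and 1.91% lower in hypertensive vessels. At an unadjusted p under 0.05 there were 2, Npr1 and Npr2, against 20.3% of all tests (12.2% higher and 8.02% lower). Npr1 was higher and Npr2 lower in all 4 hypertensive arrays than in all 4 control arrays. These were the 2 genes of the 9 whose groups did not overlap, as was the case for 13.6% of all tests (7.84% with the hypertensive arrays above and 5.78% below), so their number does not set the 9 genes apart from the rest. The estimated change was above 0 for 4 genes and below 0 for 5, with a median of -0.01, where the median over all tests was 0.04. Bulk RNA cannot tell fewer cells of a type from less RNA per cell.

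**Figure D1:**
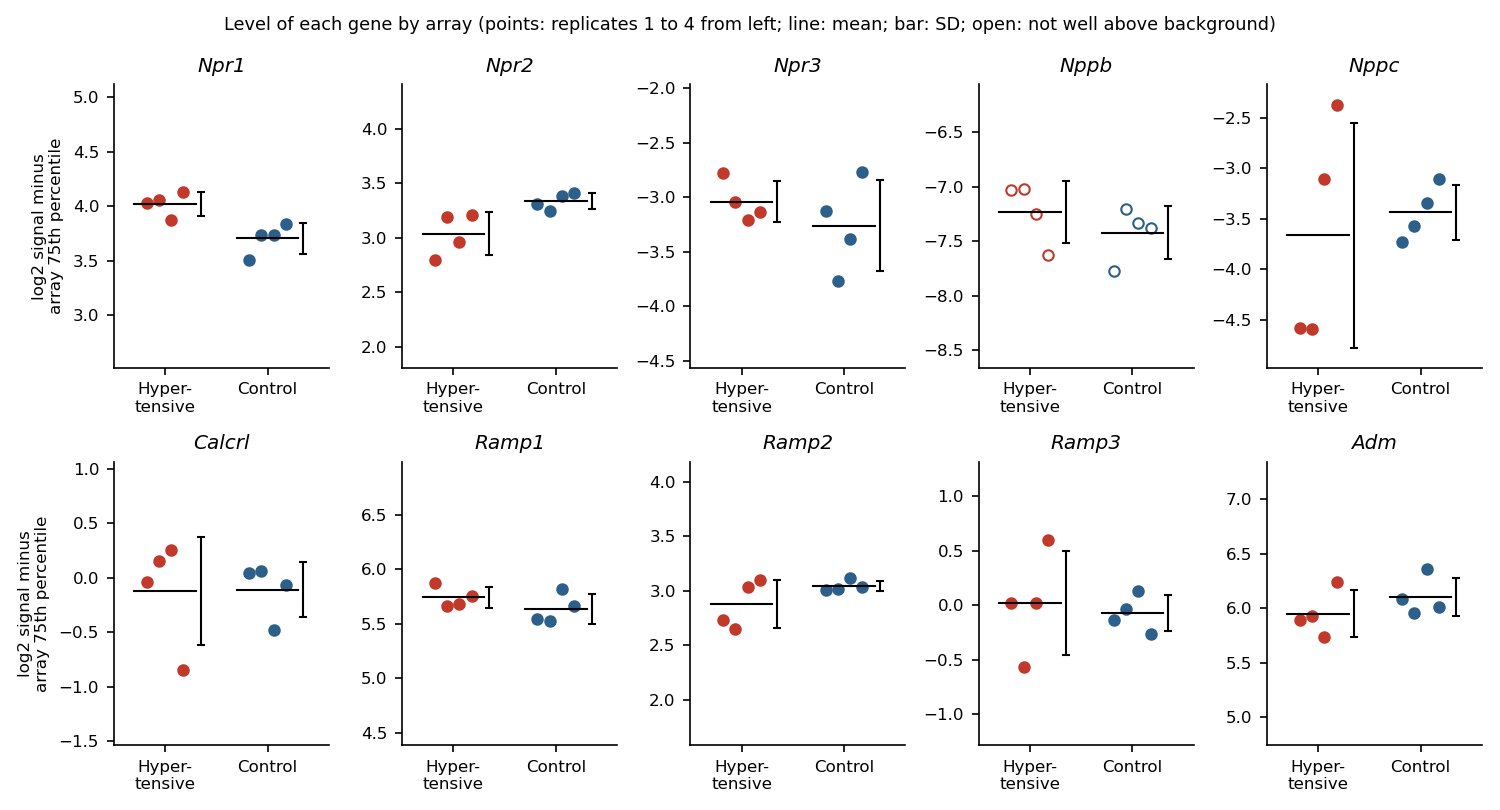
Level of each of the 10 genes on each array (y axis, log2 signal minus the array's 75th percentile; each panel has its own range), hypertensive arrays in red and control arrays in blue, with the group mean as a line and the SD as a bar beside it. The groups are apart only for Npr1, where the hypertensive arrays lie higher, and Npr2, where they lie lower; the open points of Nppb were not well above background.

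Npr1, the guanylyl cyclase receptor of atrial and B-type natriuretic peptide, had levels of 4.03, 4.06, 3.87 and 4.12 in hypertensive replicates 1 to 4, against 3.50, 3.74, 3.73 and 3.84 in control replicates 1 to 4. The lowest hypertensive array thus lay just above the highest control array. The log2 change was 0.32 ± 0.10 (standard error of the limma fit, 4 arrays per group), a 1.25-fold higher signal with a 95% interval of 1.07-fold to 1.46-fold. It did not pass over all tests (limma adjusted p = 0.114), and 9.49% of all tests had a smaller p. With normexp background correction, a different way to remove background from the raw spot signal, the change was 0.37 ± 0.10 and the adjusted p 0.0456, in a setting where 1857 tests (7.56%) passed. Across all 18 alternative settings the change lay between 0.23 and 0.37, with limma adjusted p from 0.0456 to 0.318. Its sign could not change in many of them. The replicate block and the settings that only changed the probes tested left the estimate at 0.32. Leaving out 1 array cannot reverse groups that do not overlap. With median centring the 95% interval included 0 (-0.03 to 0.50 on the log2 scale).

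Npr2, the guanylyl cyclase receptor of C-type natriuretic peptide, had levels of 2.80, 3.19, 2.96 and 3.21 in hypertensive replicates 1 to 4, against 3.31, 3.25, 3.39 and 3.42 in control replicates 1 to 4. Every hypertensive array lay below every control array, replicate 4 only just below control replicate 2. Its log2 change was -0.30 ± 0.11, which leaves 0.812 times the control signal (95% interval 0.685 to 0.964 times). It did not pass over all tests either (limma adjusted p = 0.167). With normexp the change was -0.34 ± 0.09 and the adjusted p 0.0477. In all 18 alternative settings the change lay between -0.39 and -0.22, with limma adjusted p from 0.0477 to 0.32. Here too the sign could not change with the replicate block, other probes tested or 1 array left out. The 95% interval included 0 without hypertensive replicate 1 or 3 or control replicate 3 or 4, with upper ends of 0.004 to 0.014.

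Whether the receptors differed from each other was tested on the difference between their log2 signals on each array. Npr1 minus Npr2 was 0.87 to 1.23 in hypertensive arrays and 0.19 to 0.49 in control arrays. The groups were 0.62 apart with no overlap (two-sided exact permutation test over the 35 divisions of the arrays, p = 0.029, the smallest this design can give). Npr1 was higher and Npr2 lower in every hypertensive array than in every control array, which by itself sets this difference apart. The separation and its p therefore add nothing to the results of each gene. After adjustment over the 6 pairs compared, 3 among the natriuretic receptors and 3 among the RAMP genes, the p was 0.172. That correction could not be passed by 1 separated pair at this number of arrays, since at least 4 of the 6 pairs would have to separate fully to fall under 0.05, so it says nothing on how stable the difference is. Leaving out any 1 array kept it between 0.53 and 0.66, which could not have reversed its sign, as the groups do not overlap. Npr3 minus Npr2 differed by 0.52 and Npr3 minus Npr1 by -0.10, with overlapping groups (adjusted exact permutation p = 0.228 and 0.892).

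**Figure D2:**
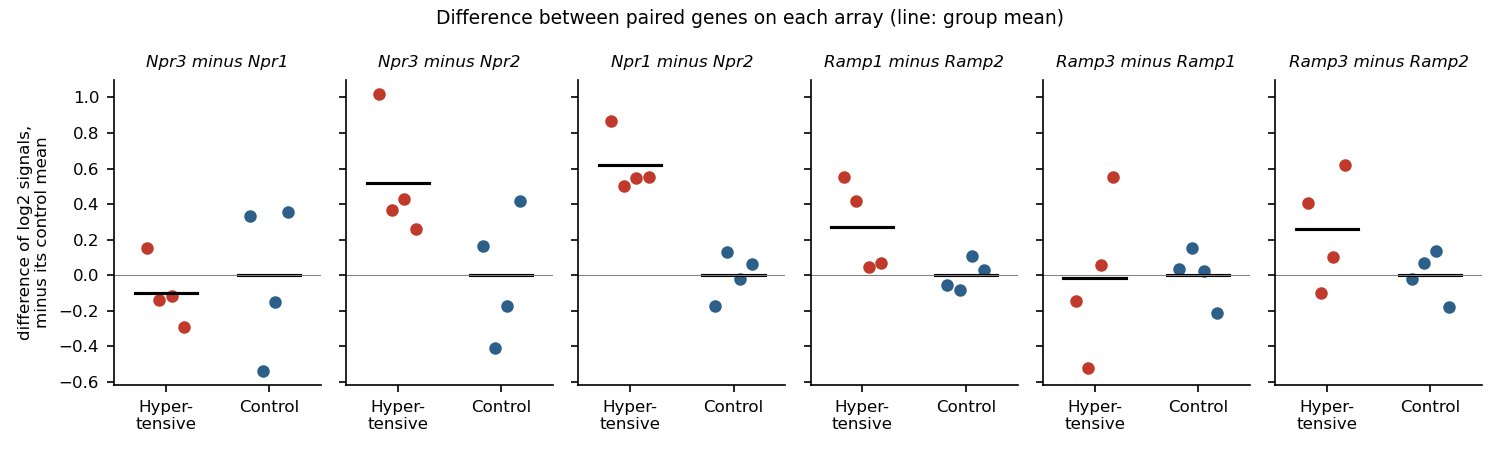
Difference between the log2 signals of a pair of genes on each array, minus the mean of that difference in the control arrays (y axis, log2), for the 3 pairs of natriuretic peptide receptors and the 3 pairs of RAMP genes. Only Npr1 minus Npr2 has all 4 hypertensive arrays (red) above all 4 control arrays (blue).

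Npr3, the clearance receptor, was dim, with signals of 42.3 to 54.5 in hypertensive arrays and 29.8 to 66.2 in control arrays on its brightest probe. That probe gave levels of -2.78, -3.04, -3.21 and -3.13 in hypertensive replicates 1 to 4, against -3.12, -3.76, -3.38 and -2.77 in control replicates 1 to 4. The control arrays spread more widely (SD 0.42, n = 4) than the hypertensive ones (SD 0.19, n = 4) and enclosed their whole range. The log2 change was 0.22 ± 0.20 (95% interval -0.24 to 0.68, limma adjusted p = 0.582). The other 2 probes of Npr3 gave 0.31 ± 0.22 and 0.37 ± 0.17, with limma adjusted p of 0.481 and 0.266 over the 27822 probes of that fit, of which 4.37% passed. All 3 probes therefore had estimates above 0 and none passed.

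As the promoter of Npr1, the gene with the smallest p among the 9, the 250 bases before its annotated start are shown from the RefSeq promoter table (GRCr8, chr2:178247089-178247338, minus strand), with capitals on letters that match a GC box or a CCAAT box. The table holds 8 of the 10 genes.
Npr1: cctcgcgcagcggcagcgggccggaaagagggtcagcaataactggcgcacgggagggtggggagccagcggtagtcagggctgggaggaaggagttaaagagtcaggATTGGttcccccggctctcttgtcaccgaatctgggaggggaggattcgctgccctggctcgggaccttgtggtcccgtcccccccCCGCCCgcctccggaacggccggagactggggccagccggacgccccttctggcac
Both strands were searched for the letters of 3 promoter motifs. These were GGGCGG for the GC box, and for the other motifs the letters TATAAA, which spell the TATA box, with the CCAAT box spelled by its own name. The Npr1 window held 1 GC box and 1 CCAAT box, both on the opposite strand, and no TATA box. Of the same windows of all 33469 genes in the table, 30.5% held a GC box, 12.9% a TATA box and 34.0% a CCAAT box. The window was 68.8% G or C, where the median of all windows was 51.2%. Among the 8 genes in the table, 5 windows held a GC box, 2 a TATA box, 2 a CCAAT box and 2 none of them. These are matches of letters and not measured binding.

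The ligands of the natriuretic receptors were dim or below background in these vessels. Nppb, which encodes B-type natriuretic peptide of the heart, was not well above background on any array (signals of 2.4 to 3.0 in hypertensive arrays and 2.2 to 3.1 in control arrays, means of 2 spots) and was not tested. Nppa, which encodes atrial natriuretic peptide, was also well above background on no array. Nppc was above background on all 8 arrays.

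Nppc, the vessel's own natriuretic peptide gene, had levels of -4.59, -4.60, -3.11 and -2.37 in hypertensive replicates 1 to 4, against -3.73, -3.57, -3.35 and -3.10 in control replicates 1 to 4. In hypertensive vessels, replicates 1 and 2 lay below every control array and replicate 4 above every control array, with signals of 14.9, 16.2, 45.3 and 92.2 in replicates 1 to 4. Its SD was 1.11 in hypertensive arrays and 0.27 in control arrays (n = 4 each), and over the 8 arrays it varied most among the 9 tested genes. Between the groups the log2 change was -0.23 ± 0.48, with a 95% interval from 0.403 times to 1.81 times the control signal (limma adjusted p = 0.822). Without hypertensive replicate 4 it was -0.66 ± 0.36 (adjusted p = 0.289), and with normexp 0.10 ± 0.16, so no direction can be given.

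The 250 bases before the start of Nppc are shown because it was the most variable gene (RefSeq, GRCr8, chr9:94772187-94772436, minus strand, capitals as above and on the TATA box).
Nppc: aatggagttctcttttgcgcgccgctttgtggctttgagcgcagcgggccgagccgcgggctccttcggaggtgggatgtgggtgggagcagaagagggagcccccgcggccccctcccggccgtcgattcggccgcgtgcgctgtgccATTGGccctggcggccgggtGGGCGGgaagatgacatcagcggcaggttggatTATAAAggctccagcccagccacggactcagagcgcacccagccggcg
Of the 8 windows, 1 held all 3 motifs, that of Nppc. The TATA box lay 48 to 43 bases and the GC box 81 to 76 bases before the start, both on the gene's strand, with the CCAAT box on the opposite strand.

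Adm, which encodes the vasodilator adrenomedullin, was read by 1 probe spotted 10 times on each array, and the SD among the 10 spots of an array was 0.028 to 0.060 on the log2 scale. That covers spot noise only; between arrays the SD was 0.21 in hypertensive and 0.18 in control vessels (n = 4 each). Its levels were 5.89, 5.93, 5.73 and 6.25 in hypertensive replicates 1 to 4, against 6.09, 5.95, 6.36 and 6.01 in control replicates 1 to 4. Of the hypertensive arrays, 3 lay below every control array, and replicate 4 lay above 3 of the 4 controls. The log2 change was -0.15 ± 0.13 (95% interval 0.730 to 1.11 times the control signal, limma adjusted p = 0.558). Without hypertensive replicate 4 it was -0.25 ± 0.12 (adjusted p = 0.222). Adm is induced by hypoxia, and of 15 tested target genes of the hypoxia factor HIF1, 0 passed by limma (2 at an unadjusted p under 0.05, against 20.3% of all tests), with a median change of 0.01. Kdm3a, a histone demethylase gene, differed by -0.36 ± 0.12 and P4ha1, a collagen prolyl hydroxylase gene, by 0.35 ± 0.13 (adjusted p = 0.137 and 0.18). The part of hypoxia in the values of Adm was not tested.

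Calcrl, the receptor shared by adrenomedullin and CGRP, had levels of -0.04, 0.15, 0.25 and -0.85 in hypertensive replicates 1 to 4, against 0.04, 0.07, -0.47 and -0.07 in control replicates 1 to 4. The groups covered each other, with 1 low array in each, hypertensive replicate 4 and control replicate 3. The difference between the groups on the log2 scale was -0.01 ± 0.24, with a 95% interval from 0.680 to 1.45 times the control signal (limma adjusted p = 0.986). Without hypertensive replicate 4 the change was 0.23 ± 0.15 (adjusted p = 0.364). An even signal was thus not shown: the interval holds changes larger than that of Npr1 in either direction.

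Ramp1, the partner that makes the CGRP receptor, had the smallest standard error of the 9 genes. Its levels were 5.87, 5.66, 5.68 and 5.76 in hypertensive replicates 1 to 4, against 5.54, 5.52, 5.81 and 5.66 in control replicates 1 to 4. The groups overlapped, and the log2 change was 0.11 ± 0.09 (95% interval 0.928 to 1.25 times the control signal, limma adjusted p = 0.568).

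Ramp2, the main adrenomedullin partner of endothelium, had levels of 2.73, 2.65, 3.04 and 3.10 in hypertensive replicates 1 to 4, against 3.01, 3.02, 3.12 and 3.04 in control replicates 1 to 4. The control arrays were close together (SD 0.05, n = 4), and hypertensive replicates 1 and 2 lay below all of them while replicates 3 and 4 lay among them. The log2 change was -0.16 ± 0.11 (95% interval 0.745 to 1.07 times the control signal, limma adjusted p = 0.46). Without hypertensive replicate 4 it was -0.24 ± 0.11 (adjusted p = 0.217), and with normexp -0.20 ± 0.09 (adjusted p = 0.191).

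Ramp3, the other adrenomedullin partner, had levels of 0.02, -0.57, 0.02 and 0.60 in hypertensive replicates 1 to 4, against -0.14, -0.03, 0.13 and -0.26 in control replicates 1 to 4. Hypertensive replicate 2 lay below and replicate 4 above every control array. The fitted log2 change was 0.09 ± 0.22 (95% interval 0.756 to 1.51 times the control signal, limma adjusted p = 0.843) and -0.10 ± 0.17 without hypertensive replicate 4. Among the RAMP genes, Ramp1 minus Ramp2 differed by 0.27, Ramp3 minus Ramp2 by 0.26 and Ramp3 minus Ramp1 by -0.01 between the groups, none past the test (adjusted exact permutation p = 0.228, 0.344 and 0.971).

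**Figure D3:**
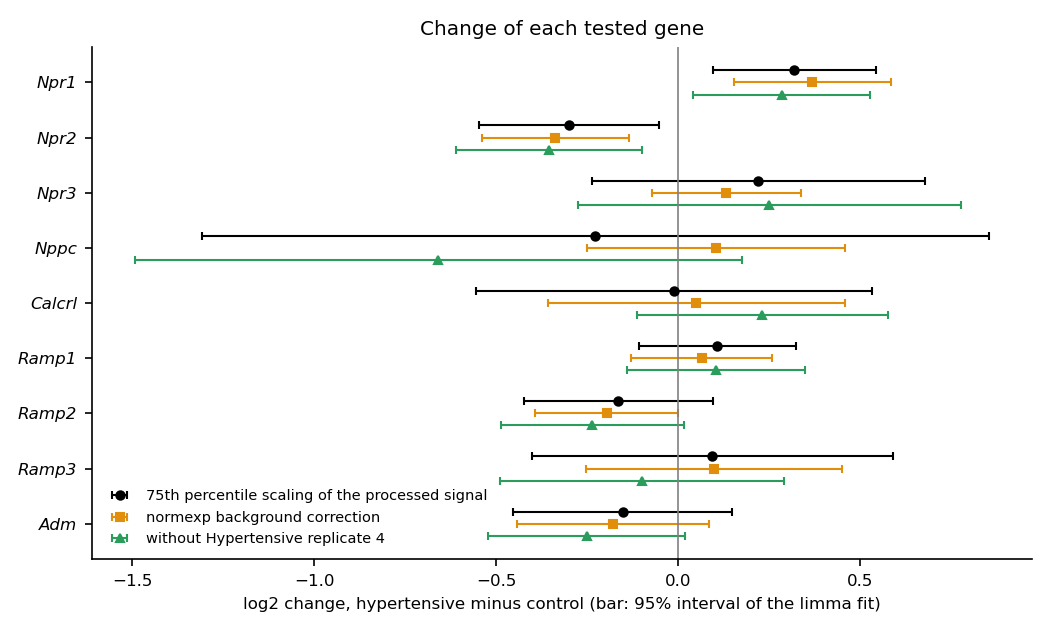
Log2 change of each of the 9 tested genes, hypertensive minus control (x axis), with its 95% interval from the limma fit, for the processed signal scaled to the 75th percentile (black), for normexp background correction (orange) and without hypertensive replicate 4 (green). Only the intervals of Npr1 and Npr2 lie clear of 0 in all 3 settings shown, and each included 0 in other settings, as given in the text. Nppc has the widest interval with the processed signal.

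The level of Ramp3 moved with the fat cell signal of the arrays, a comparison chosen after the data were seen. The white adipocyte list mean was highest in hypertensive replicate 4 (2.11) and control replicate 3 (0.30) and lowest in hypertensive replicate 2 (-1.48). Of its 10 markers 8 were tested and none passed (0 also at an unadjusted p under 0.05), while Plin1 and Pnpla3 were well above background on 1 hypertensive array at most. Ramp3 followed this mean across the 8 arrays, with Pearson r = 0.96 (exact permutation p = 0.00017) and Spearman rho = 0.93 (exact permutation p = 0.0022). Adjusted over the 9 genes these were 0.0016 and 0.020. The adjustment, here and for Calcrl below, does not cover the choice of this list among the marker lists. Without hypertensive replicates 2 and 4, the 2 arrays farthest from the median of the list mean, r was 0.91 and rho 0.83 over 6 arrays. An absolute rho as large was found for 0.2% of all tests. With 4 arrays per group, no value was computed within a group.

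Calcrl ran the other way, with r = -0.88 (exact permutation p = 0.0071, adjusted 0.032) and rho = -0.62 (exact permutation p = 0.115, adjusted 0.340). Without those 2 arrays r was -0.59 and rho -0.26, so this relation rests on them. For the other 7 genes r lay between -0.20 and 0.66, with adjusted exact permutation p of 0.213 or more. With the adipocyte mean as a covariate, the standard error of the group change was 0.09 for Ramp3, against 0.22 without it, and 0.13 for Calcrl, against 0.24 without it. These smaller errors follow from the relations just given and are no further support for them. The changes with the covariate were -0.03 for Ramp3 and 0.11 for Calcrl (limma adjusted p = 0.884 and 0.633), and those of Npr1 and Npr2 were 0.30 and -0.31 (adjusted p = 0.131 and 0.161).

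**Figure D4:**
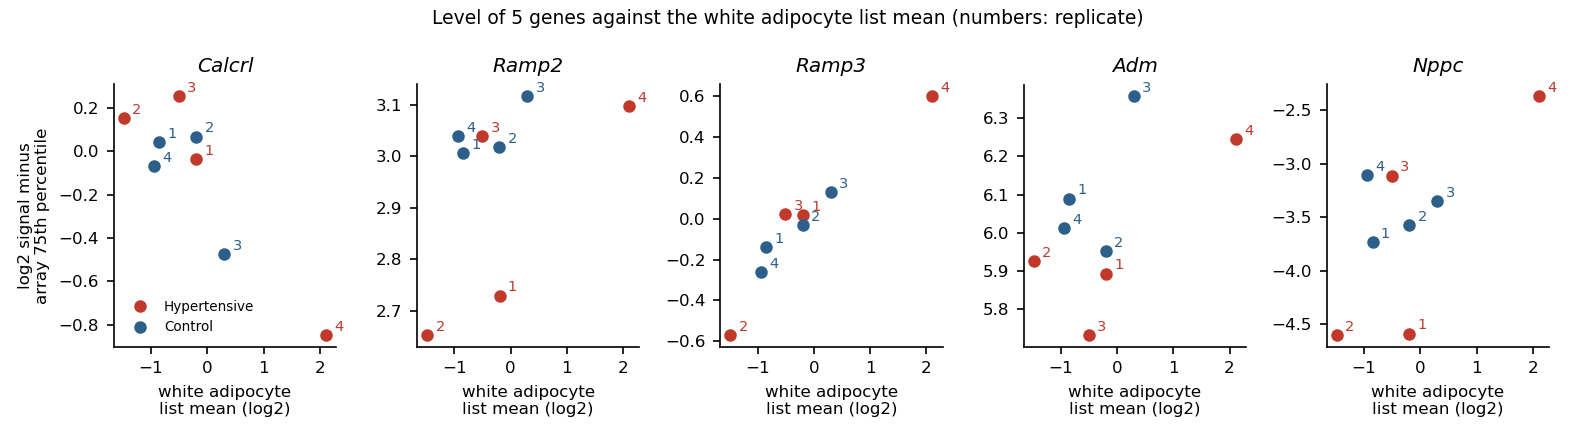
Level of Calcrl, Ramp2, Ramp3, Adm and Nppc on each array (y axis, log2 signal minus the array's 75th percentile) against the mean level of 8 white adipocyte markers on that array (x axis, log2), hypertensive arrays in red and control arrays in blue, numbered by replicate. Ramp3 climbs with the adipocyte mean across both groups (r = 0.96), and Calcrl is lowest in the 2 arrays with the highest mean.

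Because Calcrl and Ramp2 are abundant in endothelium, endothelial markers are given beside them. Of 12 endothelial genes 0 passed by limma, and their mean level was 2.75 to 2.93 in hypertensive arrays and 2.78 to 2.93 in control arrays. At an unadjusted p under 0.05 there were 4 of them, against 20.3% of all tests. Of these, 2 were higher, where 12.2% of all tests were, and 2 lower, where 8.02% were. Of 6 tested markers used for lymphatic endothelium, 2 fell, where 1.91% of all tests did. They were podoplanin, Pdpn (-1.09 ± 0.08, limma adjusted p = 0.00017) and reelin, Reln (-0.62 ± 0.10, limma adjusted p = 0.0098). The other 4 had estimates below 0. The mean of the 6 was 1.80 to 2.34 in hypertensive arrays and 2.56 to 2.73 in control arrays, without overlap. The mean of the 4 that did not pass (Prox1, Lyve1, Flt4 and Ccl21) was 1.41 to 2.18 in hypertensive arrays and 2.06 to 2.37 in control arrays, with overlap, so the separation rests on Pdpn and Reln. Pdpn and Reln are also made by other cells, and Prox1, the defining factor of lymphatic endothelium, did not pass (-0.17 ± 0.16). The part of these cells in the values of Calcrl and Ramp2 was not tested.

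Genes that work with the natriuretic receptors showed few calls. Of 6 tested genes listed under peptide processing and breakdown, 0 passed by limma, and the median change was 0.02. At an unadjusted p under 0.05, 2 were lower, where 8.02% of all tests were, and 0 were higher. The list included Osgin1, an oxidative stress gene that does not process or break down these peptides (0.09 ± 0.20, limma adjusted p = 0.835). Without Osgin1 the middle estimate was that of Furin, -0.05. Ide, the insulin-degrading enzyme, which also cleaves natriuretic peptides, came nearest to passing. Its levels were 0.32, 0.20, 0.12 and 0.35 in hypertensive replicates 1 to 4, against 0.65, 0.59, 0.58 and 0.52 in control replicates 1 to 4, with no overlap. The log2 change was -0.34 ± 0.08 (adjusted p = 0.0551), and it passed under 6 of the 18 alternatives. Pcsk6, a protease that activates the convertase corin, differed by -0.25 ± 0.10 (adjusted p = 0.23).

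Of 15 tested cyclic GMP effectors and phosphodiesterases, the enzymes that break cyclic nucleotides down, 1 fell and none rose, with a median of 0.08. Over all tests 1.91% fell and 2.61% rose. The gene that fell was Pde1b, a calcium-activated phosphodiesterase gene. Its levels were -1.99, -2.17, -2.34 and -1.67 in hypertensive replicates 1 to 4, against -1.36, -1.52, -1.25 and -1.03 in control replicates 1 to 4. Its fitted log2 change was -0.75 ± 0.16 (adjusted p = 0.0355). The call was lost without hypertensive replicates 1, 2 or 3 or control replicates 1, 3 or 4, with adjusted p up to 0.0942. At an unadjusted p under 0.05, 5 of the 15 were lower, where 8.02% of all tests were, and 1 higher, where 12.2% were. Besides Pde1b the lower ones were Pde1c (-0.50 ± 0.15), Pde3b (-0.28 ± 0.12), Pde5a (-0.32 ± 0.14) and Pde9a (-0.30 ± 0.10), named after their values were seen, with adjusted p of 0.0974 to 0.245, so that only Pde1b passed. The other 4 of the 9 tested phosphodiesterase genes, Pde1a, Pde2a, Pde3a and Pde10a, had estimates above 0, between 0.04 and 0.18. The higher one was Irag1 (0.48 ± 0.18, adjusted p = 0.191), a substrate of cyclic GMP-dependent protein kinase. The kinase gene Prkg1 itself differed by 0.30 ± 0.26.

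In the calcitonin family, the peptide genes Calca and Adm2, the receptor gene Calcr and Iapp were well above background on no array, while Calcb, which encodes a form of CGRP, was measured (0.11 ± 0.09, adjusted p = 0.534). CGRP is made by sensory nerves. The nerve fibre list held sensory and sympathetic markers together, so its mean does not measure sensory fibres alone. Of its 14 markers 8 were tested and 1 rose, the neurofilament gene Nefh, where 2.61% of all tests rose. The 6 others were well above background on 0 arrays. The mean of the 8 was -0.37 to -0.04 in hypertensive arrays and -1.32 to -0.68 in control arrays. That gap rests on Nefh, with levels of -2.09 to -1.83 in hypertensive arrays and -7.26 to -5.62 in control arrays. In control replicates 2 to 4 the Nefh levels (-7.26, -5.96 and -6.99) were not well above background. The lowest levels of probes well above background there were -6.02, -5.75 and -5.46. Nefh thus passed the filter on dim signal only through the hypertensive arrays, and the size of its change is not well measured. The mean of the other 7 was -0.12 to 0.21 in hypertensive arrays and -0.47 to 0.08 in control arrays, with overlap. Its part in the values of Calcb and Ramp1 was not tested. Of the 8 genes of the calcitonin family tested, 1 rose and none fell, where 2.61% of all tests rose and 1.91% fell. Their median was 0.12. The gene was Gpr182, a receptor of endothelium once proposed to bind adrenomedullin and now known as a scavenger of chemokines. Its levels were -2.49, -2.26, -2.54 and -1.73 in hypertensive replicates 1 to 4, against -4.02, -3.42, -3.12 and -3.24 in control replicates 1 to 4. The groups were well apart, and the log2 change was 1.20 ± 0.23, a 2.29-fold higher signal (adjusted p = 0.0244). The call was lost without hypertensive replicate 2 or control replicate 2 (adjusted p = 0.0653 and 0.0629), and with normexp the change was 0.65. Ackr3, a scavenger receptor of adrenomedullin, differed by -0.16 ± 0.13, and Pam, the enzyme that amidates both peptides, by -0.08 ± 0.09.

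Downstream of the Calcrl receptors, 0 of 19 genes of the Gs protein and cyclic AMP route passed by limma, with a median of 0.06. At an unadjusted p under 0.05 there were 3, against 20.3% of all tests. The adenylyl cyclase gene Adcy5 differed by 0.43 ± 0.14 and the receptor kinase gene Grk5 by -0.23 ± 0.08 (adjusted p = 0.126 and 0.131). Of 23 tested immediate early genes, which answer stimuli within minutes, 14 fell, where 1.91% of all tests did. Among them Dusp1 fell by 1.83, Fos by 1.81, Jun by 1.19 and Klf4 by 0.77 on the log2 scale. The list mean was 1.16 to 1.64 in hypertensive arrays and 2.24 to 3.06 in control arrays. The count was 3 with the replicate block and 7 with no filter on dim probes. It was 6 without hypertensive replicate 3, 4 without control replicate 1 and 7 without control replicate 3. The part of these genes in the values of the 9 genes was not tested.

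**Figure D5:**
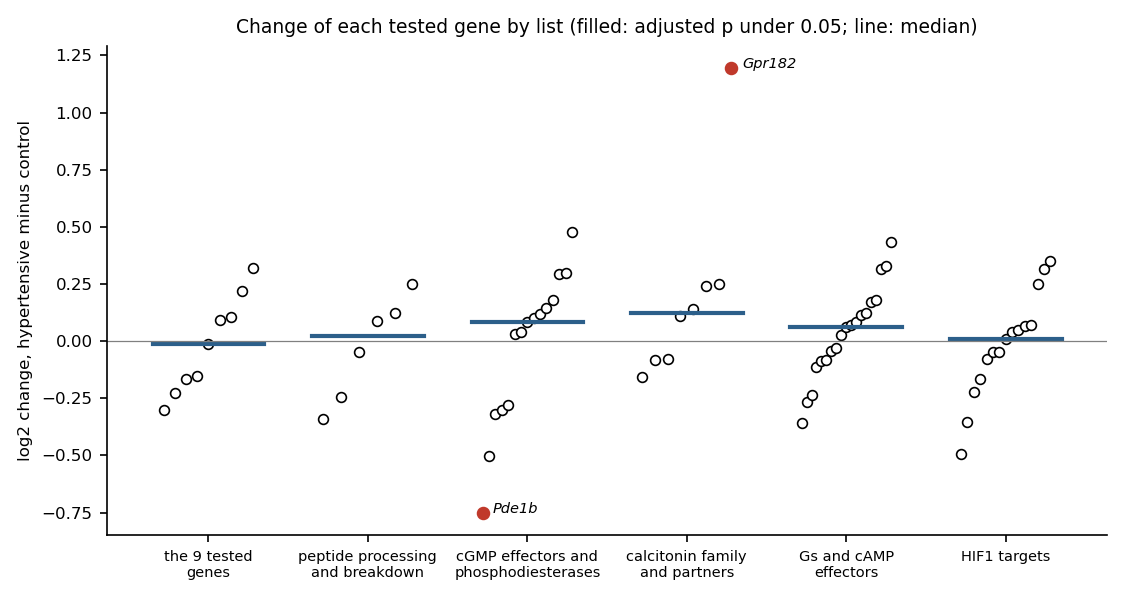
Log2 change, hypertensive minus control (y axis), of each tested gene, in order of size within a list, with the median as a line. The 9 tested genes come first, then 5 of the lists given in the text. Filled points passed the test at an adjusted p under 0.05, and these were Pde1b, which was lower, and Gpr182, which was higher in hypertensive arrays.

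By a rule based on shape over the 8 arrays, the named genes closest to Npr1 were Ager, Try10, Rhbdd2 and Apom, with a root-mean-square difference of 0.04 to 0.07 after each gene was centred on its mean, where the median over named genes was 0.25. For Nppc, the most variable gene, the closest were LOC102556374, Mgst1, Rhobtb2 and Trem3, at 0.36 to 0.39, where the median was 0.73. These are descriptions of 8 arrays. The spread was larger among hypertensive than among control arrays for 6 of the 9 genes (64.8% of all tests), and for 4 of the 9 without hypertensive replicate 4 (54.8% of all tests).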

How the data were processed

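Total RNA (100 ng per sample, per the labels) was labelled with Cy3 and hybridised to an Agilent rat array. In the scanner output as deposited, each spot has a processed intensity, from which Agilent Feature Extraction had already removed background (version 10.7.1.1 per the file headers, 12.1.1.1 per the submitters' processing notes). The deposited value table holds a ratio, the processed intensity over a constant close to each array's 75th percentile; it served as an alternative. Its direction is that of the signal, it is linear and not centred per gene, and its column medians were 0.101, 0.093, 0.097 and 0.090 in hypertensive replicates 1 to 4 and 0.092, 0.089, 0.086 and 0.091 in control replicates 1 to 4.

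Here spots marked as outliers were dropped, spots of a probe averaged on the log2 scale of the deposited intensity, and each array's 75th percentile subtracted. A probe was kept if well above background on at least 3 of 4 arrays of at least 1 group (27822 probes). Gene symbols came from a RefSeq table (GRCr8) by accession (46.6% of probes); the brightest kept probe stood for a gene. Groups were compared with limma 3.58.1 in R 4.3.3, with Benjamini-Hochberg adjustment over all tests and a threshold of 0.05, after the code was tested on simulated data. Normexp used the median spot signal and an offset of 50. The number of arrays limits the precision. Replicates are separate rats, per the series' design text.

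The 10 genes and all gene lists were chosen with earlier results of these data known. Genes named were all 10, up to 4 per pathway list past the threshold (otherwise the 2 with the smallest p), marker genes past the threshold where a result touches them, and for likeness the 4 nearest to the genes with the smallest p and the largest SD. Irag1, Prkg1, Osgin1, Furin, Calcb, Ackr3, Pam, Prox1, Lyve1, Flt4, Ccl21, Pde1a, Pde1c, Pde2a, Pde3a, Pde10a, Pde3b, Pde5a, Pde9a and the markers at 0 were added after their values were seen. The median signal replaced the mean signal planned for normexp, which the files lack.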

Additional observations from a re-analysis of the deposited data

How the results depend on the processing

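All 18 alternatives gave 0 of the 9 genes past the threshold except normexp, which gave 2 (Npr1 and Npr2). The number of all tests past the threshold, 1111, was 1857 with normexp, 641 with no filter on dim probes and 675 with the replicate block, and 629 to 1473 with 1 array left out. Calls were 57.7% higher in hypertensive arrays, but 47.4% with quantile normalization and 39.3% with median centring. Of the 162 member values under alternatives, 147 kept direction and side of the threshold. The replicate block and the settings that only changed the probes tested left each of the 9 estimates as it was, so direction could not change there. Estimates that changed sign were those of Calcrl (0.050 with normexp, 0.12 with array weights, 0.11 with the adipocyte covariate, -0.14 to 0.23 with 1 array left out), Ramp3 (-0.049 with array weights, -0.027 with the covariate, -0.10 to 0.29) and Nppc (0.10 with normexp, -0.66 to 0.082). Of the pair differences, Ramp3 minus Ramp1 was 0.033 with normexp, 0.021 with quantile normalization and -0.20 to 0.15 with 1 array left out, and Npr3 minus Npr1 -0.28 to 0.020. The list of peptide processing genes had 1 call (Ide) with normexp, quantile normalization, median centring, array weights or the covariate, and 0 to 1 with 1 array left out. With no filter the calls of Pde1b and Gpr182 were lost, leaving 0 in each list, as with some single arrays left out (0 to 1). Immediate early gene calls, 14, were 7 with no filter, 3 with the replicate block and 4 to 13 with 1 array left out; Klf4 was among those not called with the replicate block (adjusted p = 0.073). The cause of these shifts was not tested, beyond the larger number of tests with no filter. Replicate numbers did not pair the arrays (correlations of deviations between same-numbered arrays -0.15 to 0.21; 2 of 4 correlated best with their own number), and the replicate block changed no call of the 9 genes (Npr1 adjusted p = 0.156, Npr2 adjusted p = 0.207). Dim probes such as those of Npr3 and Nppc limit what can be seen of small changes.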
